A study of Mus musculus with 6 samples.

Results

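This section describes 30 mouse genes of cholesterol synthesis, its control, and sterol transport, storage and efflux, in hepatocyte nuclei of pregnant and lactating mice. The genes were taken by symbol from a table of read counts with 40824 genes and 1567 nuclei, and all 30 were in it. They were 19 synthesis enzymes, 4 regulators, 4 genes of sterol transport, storage and receptor control, and 3 efflux transporters. Nuclei came from female C57BL/6J mice labelled WT, mated at about 8 weeks of age, at G0 and G14.5, which are days of gestation, and at P7L, day 7 postpartum in lactating mothers. Each stage had 1 library of nuclei from liver tissue and 1 from a perfused liver. The labels name no animal, so the p-values below measure the spread between these 6 libraries, which may be technical. Sample titles speak of nuclei, whereas the protocol text describes picking whole hepatocytes, and the mode of preparing nuclei is not given in the sources used here.

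Cholesterol is made in the cytosol and endoplasmic reticulum from acetyl-CoA, by way of mevalonate, farnesyl diphosphate, squalene and lanosterol. Most enzymes of this route are targets of the transcription factor SREBP2 (Srebf2). Scap escorts SREBP2 out of the endoplasmic reticulum when sterols are low, and Insig1 and Insig2 hold both back when sterols are plentiful. Surplus cholesterol in hepatocytes is esterified by Soat2, loaded onto lipoproteins through Abca1, or pumped into bile by the Abcg5-Abcg8 pair, whose genes respond to the oxysterol receptors LXR.

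The libraries held 184 to 308 nuclei and 226030591 to 379767336 reads each. Markers of Kupffer, endothelial, stellate, bile duct and lymphoid cells were low, and the highest summed level of a list was 0.0194% of reads, for bile duct markers in the P7L perfusion library, and no nucleus reached 1% for any of these lists. The stellate marker Lrat had 0 reads in all 6 libraries. Of 10 hepatocyte markers, 9 were in the table, and they took 1.18% and 1.2% of reads in the G0 libraries, 1.54% and 1.79% in those of G14.5, and 1.37% and 1.28% in those of P7L. The hepatocyte list passed 1% of reads in 106 of 184 and 158 of 252 nuclei of the G0 libraries. At G14.5 it did so in 289 of 301 and 220 of 224 nuclei, and at P7L in 232 of 298 and 257 of 308. Many nuclei thus did not pass 1% for hepatocyte markers either. The part of these marker levels in the results below was not tested. Levels are normalised read counts (CPM, after TMM scaling of the library totals), and a gene was called when the edgeR quasi-likelihood test gave a Benjamini-Hochberg adjusted p under 0.05 over 15015 tested genes. Of the 30 genes, 28 were tested, among them 18 of the 19 enzymes.

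Promoter windows of the RefSeq annotation, from 250 bases before to 50 bases after the start site (GRCm38.p6), were matched for 25 of the 30 genes. Fdps, Fdft1, Sqle, Soat2 and Stard4 had no matched window and were not searched. The windows were searched on both strands for letters bound by the factors that act on these genes. A gene was counted when any of its windows held the motif. The short NF-Y motif CCAAT was counted in 22 of 25 genes (88%) and in 15 of 16 enzymes (93.8%). It was counted in 41.1% of all 27025 genes with a window and in 42.8% of the 10600 tested ones. GGGCGG, the SP1 motif, was counted in 20 of 25 genes (80%), beside 38.2% of all genes and 63.4% of tested genes. The SRE core TCACCCCAC was in Hmgcs1 alone among the 25 (4%), beside 0.614% of all genes, and TCACNCCAC, which includes it, was in the same gene alone, beside 1.44%. CACGTG was counted in 6 of 25 genes (24%) and in 3 of 16 enzymes (18.8%), beside 8.09% of all genes and 11.1% of tested genes. The LXR repeat DR4, a repeat of AGGTCA spaced by 4 bases, was in none of the 25 and in 0.0148% of all genes. A match is only a description of letters, and the absence of one concerns these windows alone. The 4 windows below are examples and not those of the genes that moved most: Hmgcs1 holds the SRE core, Msmo1 was called higher at both later stages than at G0, Insig1 was called in opposite directions at these stages, and Abcg8 shares its start region with Abcg5. Hmgcs1 is at chr13:119690101-119690400 (plus strand), Msmo1 at chr8:64733529-64733828 (minus strand) and Insig1 at chr5:28071162-28071461 (plus strand). The Abcg8 window, chr17:84682871-84683170 (plus strand), was chosen because it overlaps that of Abcg5. It holds RefSeq start sites of both Abcg8 and its divergent neighbour Abcg5, which lie 110 bases apart. In GENCODE the span of Abcg8 starts elsewhere, at 84676302, and the overlap of both spans given below uses that start. Capitals mark CCAAT or its complement ATTGG, and the SRE core.
Hmgcs1: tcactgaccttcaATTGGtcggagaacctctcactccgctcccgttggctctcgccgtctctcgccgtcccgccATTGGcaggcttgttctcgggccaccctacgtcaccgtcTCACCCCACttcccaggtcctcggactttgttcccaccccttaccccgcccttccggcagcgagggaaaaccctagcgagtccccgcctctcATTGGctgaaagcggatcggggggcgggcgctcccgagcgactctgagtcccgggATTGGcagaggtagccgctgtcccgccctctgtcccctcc
Msmo1: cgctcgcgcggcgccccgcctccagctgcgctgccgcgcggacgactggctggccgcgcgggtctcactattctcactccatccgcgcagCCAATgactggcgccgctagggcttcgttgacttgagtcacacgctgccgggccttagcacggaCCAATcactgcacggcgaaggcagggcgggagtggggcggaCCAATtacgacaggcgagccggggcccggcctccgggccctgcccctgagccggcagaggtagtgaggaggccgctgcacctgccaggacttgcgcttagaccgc
Insig1: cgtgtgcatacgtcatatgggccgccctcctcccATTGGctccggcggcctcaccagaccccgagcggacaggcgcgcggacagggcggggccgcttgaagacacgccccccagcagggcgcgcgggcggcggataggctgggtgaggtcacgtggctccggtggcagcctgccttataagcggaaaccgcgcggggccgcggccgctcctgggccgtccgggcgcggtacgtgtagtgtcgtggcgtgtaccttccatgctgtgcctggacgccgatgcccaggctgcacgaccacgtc
Abcg8: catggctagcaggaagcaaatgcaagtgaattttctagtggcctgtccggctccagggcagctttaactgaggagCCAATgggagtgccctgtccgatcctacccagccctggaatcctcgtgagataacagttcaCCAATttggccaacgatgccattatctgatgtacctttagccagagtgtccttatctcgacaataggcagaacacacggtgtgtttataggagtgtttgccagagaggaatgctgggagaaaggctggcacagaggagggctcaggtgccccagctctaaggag
In the Hmgcs1 window the SRE core starts 137 bases before the start site, between CCAAT matches that start 176 and 45 bases before it. Msmo1 has 3 CCAAT matches, starting 160, 96 and 55 bases before its start site. Insig1 has 1, starting 216 bases before. In the Abcg8 window the match that starts 114 bases before the Abcg8 start site lies at the start site of Abcg5.

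Levels between genes were set side by side on the authors' length-scaled values (TPM-like, parts per 100000), as means over the 6 libraries, which pool stages that differ. How the authors defined a gene's length is not given in the sources used here. Relative to the albumin gene, the length behind the Fdps values was 0.607, whereas all its annotated exons together give 1.80. The same lengths were 1.10 and 2.08 for Sc5d, 1.58 and 1.96 for Hmgcs1, and 1.32 and 1.32 for Insig1. The levels of such genes, and their order, can thus depend on that choice. Insig1 averaged 106, Sc5d 38.1, Hmgcs1 26.8 and Fdps 21.7. Among the enzymes Lss (0.259), Mvk (0.575) and Idi1 (0.763) were lowest. Soat2 (11.9) and Abcg5 (11.1) were close to each other, while Abcg8 had 2.64 and Abca1 8.86. Mylip, a ubiquitin ligase that sends lipoprotein receptors for degradation, had 0.0529, and Npc1l1, the sterol absorption transporter of the mouse intestine, had 0.00629.

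At G14.5, 9 of 18 tested synthesis enzymes were called higher than at G0, and the sterol exporters Abcg5 and Abcg8 were called lower. In this comparison 14 of 28 tested genes were called, 11 higher and 3 lower, where 11.9% of all tested genes were called (6.93% higher and 5.01% lower). None of the other 9 enzymes was called. Their log2 changes were 1.36 for Idi1, 1.11 for Mvk, 1.04 for Cyp51, 0.95 for Lss and 0.94 for Hsd17b7. They were 0.34 for Acat2, 0.29 for Dhcr7, 0.02 for Ebp and -0.02 for Ggps1. The median log2 change was 1.12 over the enzymes and 0.90 over the 28 genes, beside -0.01 over all tested genes. At P7L against G0, 7 of 28 were called, 6 higher and 1 lower, where 2.92% of all tested genes were called (1.56% higher and 1.36% lower). The enzymes numbered 5 higher and 0 lower there, with a median log2 change of 0.97 beside 0.01 over all tested genes. At P7L against G14.5, 6 of 28 were called, 2 higher and 4 lower, where 9.26% of all tested genes were called (4.2% higher and 5.06% lower). This last comparison tests whether the changes of both stages against G0 differ, since both use the same G0 libraries. Within the liver tissue libraries alone and the perfusion libraries alone, 24 of 28 genes had the same direction for G14.5 against G0, beside 68.1% of all tested genes. The counts were 24 for P7L against G0 (66.1%) and 23 for P7L against G14.5 (70.6%).

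**Figure D1:**
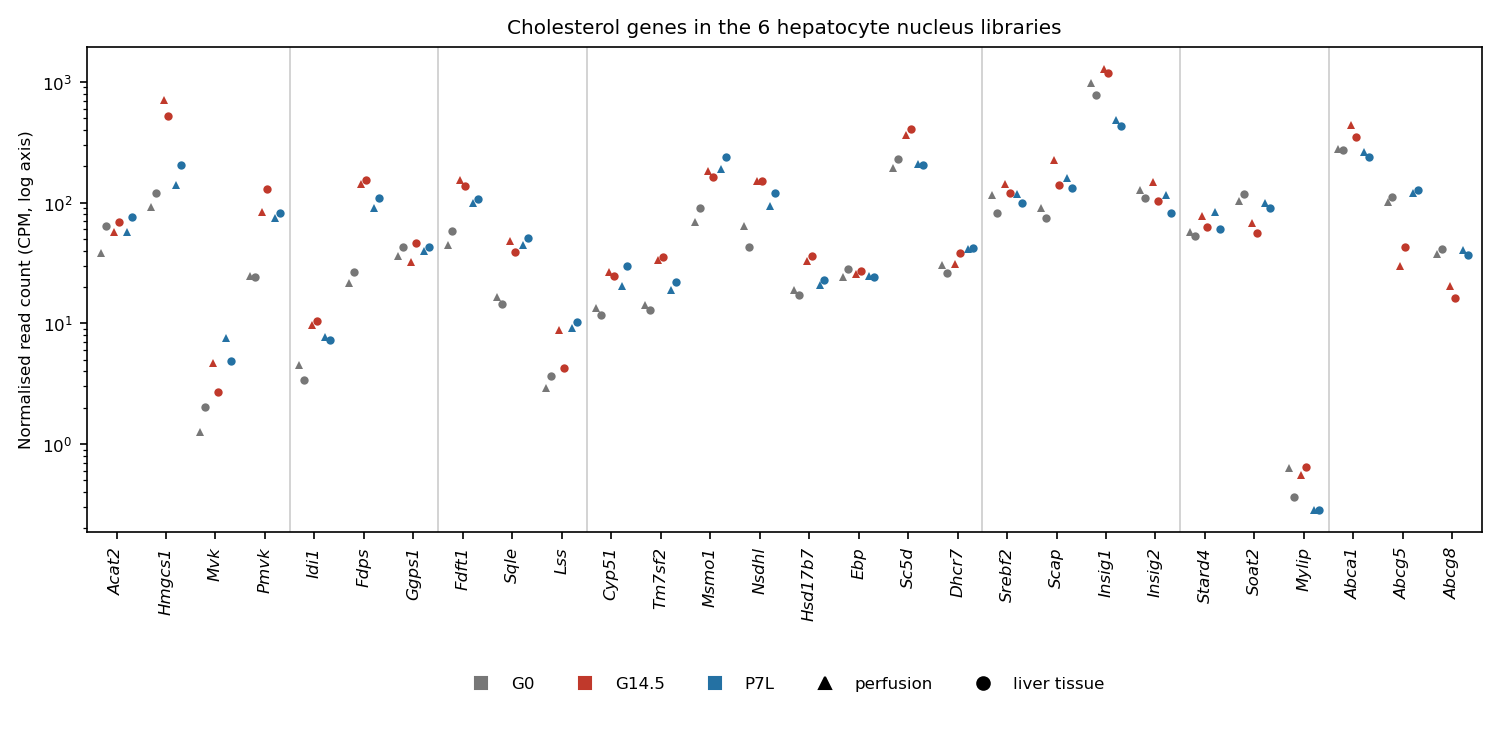
Normalised read count (CPM, log axis) of the 28 tested genes in each of the 6 libraries, with stages in colour (G0, G14.5, P7L) and preparations by symbol; grey lines separate the steps of the pathway. Both G14.5 libraries lie above both G0 libraries for Hmgcs1 (713 and 524 CPM, against 92.7 and 121 CPM) and below them for Abcg5 (29.9 and 42.7 CPM, against 101 and 112 CPM).

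The first steps build mevalonate and phosphorylate it. Hmgcs1, the cytosolic HMG-CoA synthase, had 92.7 and 121 CPM in G0 nuclei, 713 and 524 CPM in G14.5 nuclei, and 139 and 206 CPM in P7L nuclei, for perfusion and liver tissue within each pair. Both G14.5 libraries stood above the other 4 without overlap. The log2 fold change was 2.56 ± 0.25 (SE) at G14.5 against G0 (adjusted p = 0.00163), 0.69 ± 0.23 at P7L against G0 (adjusted p = 0.154, not called) and -1.87 ± 0.24 at P7L against G14.5 (adjusted p = 0.00468). Its level at P7L was thus lower than at G14.5 by 3.65-fold. Pmvk, phosphomevalonate kinase, had 24.7 and 24.0 CPM in the G0 libraries, 82.9 and 131 CPM in those of G14.5, and 75.0 and 81.9 CPM in those of P7L. Its G0 libraries were the lowest pair, and P7L lay narrowly below G14.5. Pmvk was 4.29-fold higher at G14.5 than at G0 (log2 2.1 ± 0.22 SE, adjusted p = 0.00238) and 3.20-fold higher at P7L than at G0 (log2 1.68 ± 0.22, adjusted p = 0.0188). Leaving out a P7L library ended the second call, with an adjusted p of 0.132 without perfusion and 0.0651 without liver tissue (1.62e-09 to 0.132 over 16 alternatives). Acat2, which joins acetyl-CoA units ahead of Hmgcs1, had 38.3 and 64.1 CPM in G0 nuclei, 57.4 and 68.9 CPM in G14.5 nuclei, and 57.0 and 76.7 CPM in P7L nuclei, so that its groups overlapped. Mvk, mevalonate kinase, had 1.26 and 2.03 CPM in G0 nuclei and 4.71 and 2.69 CPM in G14.5 nuclei. In P7L nuclei it had 7.50 and 4.91 CPM, and its stages did not overlap. The log2 fold change of Mvk was 1.11 ± 0.56 (SE) at G14.5 and 1.86 ± 0.57 at P7L, both against G0. Mvk was called in no stage comparison by edgeR. DESeq2 called it higher at P7L than at G0 (adjusted p = 0.00633; 0.00633 to 0.587 over 16 alternatives).

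Mvd, mevalonate diphosphate decarboxylase, had 0 reads in all 1567 nuclei. In the annotation Mvd lies at chr8:122433601-122443422 on the minus strand, inside the gene model Gm20388 (chr8:119910841-124345722, plus strand). Gm20388 had 1032272 reads, and all 71 protein-coding genes inside it were at 0 reads. The 0 for Mvd therefore stands beside a whole block of genes at 0 in these counts, and no level of Mvd is given.

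Isoprenoid steps follow. Fdps, farnesyl diphosphate synthase, had 21.4 and 26.8 CPM in the G0 libraries, 142 and 155 CPM in those of G14.5, and 89.7 and 109 CPM in those of P7L. The 3 stages did not overlap. Fdps was 6.19-fold higher at G14.5 than at G0 (log2 2.63 ± 0.17 SE, adjusted p = 0.000337), the highest fold among the 28 genes, and 4.14-fold higher at P7L than at G0 (log2 2.05 ± 0.17, adjusted p = 0.00373). P7L against G14.5 was not called (log2 -0.58 ± 0.16, adjusted p = 0.0694). It was called without G0 perfusion (0.0304) or G0 liver tissue (0.0307; 0.0141 to 0.450 over 16 alternatives). Idi1, isopentenyl diphosphate isomerase, had 4.50 and 3.36 CPM in G0 nuclei, 9.60 and 10.4 CPM in G14.5 nuclei, and 7.77 and 7.23 CPM in P7L nuclei, with no overlap between stages. Its change at G14.5 against G0 missed the threshold (log2 1.36 ± 0.38, adjusted p = 0.0605). Ggps1, which leads farnesyl diphosphate away towards geranylgeranyl groups for proteins, ranged from 32.1 to 46.2 CPM with overlapping stages. Its log2 fold change was -0.02 ± 0.22 at G14.5 and 0.07 ± 0.21 at P7L, both against G0.

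Squalene is made and closed into lanosterol by 3 enzymes. Fdft1, squalene synthase, had 44.9 and 57.8 CPM in the G0 libraries, 154 and 136 CPM in those of G14.5, and 98.4 and 108 CPM in those of P7L. The 3 stages did not overlap. Fdft1 was 2.85-fold higher at G14.5 than at G0 (log2 1.51 ± 0.19 SE, adjusted p = 0.00398) and 2.01-fold higher at P7L than at G0 (log2 1.01 ± 0.18, adjusted p = 0.0388). Sqle, squalene epoxidase, had 16.66 and 14.505 CPM in G0 nuclei, 48.1 and 38.7 CPM in G14.5 nuclei, and 44.4 and 51.0 CPM in P7L nuclei. Its G14.5 and P7L libraries overlapped, and both pairs stood above G0. Sqle was 2.78-fold higher at G14.5 than at G0 (log2 1.48 ± 0.23 SE, adjusted p = 0.01) and 3.08-fold higher at P7L than at G0 (log2 1.62 ± 0.24, adjusted p = 0.0238). Lss, lanosterol synthase, had 2.90 and 3.67 CPM in the G0 libraries, 8.81 and 4.26 CPM in those of G14.5, and 9.17 and 10.2 CPM in those of P7L, and was called in no stage comparison by edgeR. DESeq2 called Lss higher at P7L than at G0 (adjusted p = 0.00839; 0.00839 to 0.569 over 16 alternatives). Without the G14.5 perfusion library Sqle was not called at G14.5 against G0 (adjusted p = 0.0700; 1.88e-08 to 0.0700 over 16 alternatives). At P7L against G0 the calls rested on both P7L libraries: without perfusion the adjusted p was 0.103 for Sqle and 0.235 for Fdft1, and without liver tissue 0.169 and 0.218. Fdft1 was also not called there without the G0 perfusion library (adjusted p = 0.0711). Over the alternatives these adjusted p-values ran from 1.73e-09 to 0.169 for Sqle and from 0.000191 to 0.235 for Fdft1.

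The sterol steps trim lanosterol to cholesterol, and 4 of their 8 enzymes were higher at G14.5 than at G0. Msmo1, the methylsterol oxidase, had 69.2 and 90.8 CPM in G0 nuclei, 182 and 163 CPM in G14.5 nuclei, and 188 and 239 CPM in P7L nuclei. Both later stages stood above G0, and P7L lay narrowly above G14.5. Msmo1 was 2.18-fold higher at G14.5 than at G0 (log2 1.13 ± 0.18 SE, adjusted p = 0.00980) and 2.67-fold higher at P7L than at G0 (log2 1.42 ± 0.18, adjusted p = 0.0159), the only sterol-step enzyme called at P7L against G0. Nsdhl, which acts after Msmo1 in removing the same methyl groups, had 64.0 and 42.8 CPM in the G0 libraries, 152 and 150 CPM in those of G14.5, and 93.7 and 121 CPM in those of P7L. Its stages did not overlap. Nsdhl was 2.84-fold higher at G14.5 than at G0 (log2 1.51 ± 0.24 SE, adjusted p = 0.00981), and P7L against G0 missed the threshold (log2 1.02 ± 0.24, adjusted p = 0.0718) and was called without G0 perfusion (0.0263; 0.00281 to 0.39 over 16 alternatives). Tm7sf2, a sterol reductase, had 14.3 and 13.0 CPM in G0 nuclei, 33.7 and 35.6 CPM in G14.5 nuclei, and 18.7 and 22.2 CPM in P7L nuclei. Again the stages did not overlap, and Tm7sf2 was 2.54-fold higher at G14.5 than at G0 (log2 1.34 ± 0.25 SE, adjusted p = 0.0180). Sc5d, the sterol desaturase, had 194 and 231 CPM in the G0 libraries, 362 and 405 CPM in those of G14.5, and 210.5 and 206 CPM in those of P7L. Its P7L values lay within the span of G0. Sc5d was 1.80-fold higher at G14.5 than at G0 (log2 0.85 ± 0.13 SE, adjusted p = 0.00909) and lower at P7L than at G14.5 by 1.84-fold (log2 -0.88 ± 0.13, adjusted p = 0.00818), with a log2 difference of -0.03 ± 0.13 at P7L against G0.

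Several calls of the sterol steps were lost when 1 library was left out, in fits with fewer samples. At G14.5 against G0 the log2 change of Tm7sf2 was 1.33 without G14.5 liver tissue and 1.37 without G14.5 perfusion, beside 1.34 with all libraries. Without G14.5 liver tissue it was 1.47 for Nsdhl, beside 1.51, and 0.82 for Sc5d, beside 0.85. For Msmo1 it was 0.87 without G14.5 perfusion, beside 1.13. Without liver tissue at G14.5 the adjusted p for G14.5 against G0 was 0.113 for Tm7sf2, 0.0538 for Nsdhl and 0.0690 for Sc5d. Without the G14.5 perfusion library it was 0.0971 for Tm7sf2 and 0.0526 for Msmo1. Without the P7L perfusion library the Msmo1 call at P7L against G0 ended (adjusted p = 0.0673), and likewise without P7L liver tissue (0.0978; 2.78e-08 to 0.0978 over 16 alternatives). Sc5d at P7L against G14.5 was not called without P7L perfusion (0.0543), P7L liver tissue (0.136) or G14.5 liver tissue (0.0626; 3.90e-05 to 0.136 over 16 alternatives). Over 16 alternatives the highest adjusted p was 0.113 for Tm7sf2, 0.0538 for Nsdhl, 0.0690 for Sc5d and 0.0526 for Msmo1 at G14.5 against G0, and the lowest lay at or under 6.61e-05. The other 4 sterol-step enzymes were called in no stage comparison. Of these, Hsd17b7 had 18.8 and 17.1 CPM in G0 nuclei, 32.7 and 36.4 CPM in G14.5 nuclei, and 20.8 and 22.9 CPM in P7L nuclei, and its adjusted p at G14.5 against G0 was 0.0502. Cyp51, the lanosterol demethylase, had 13.3 and 11.7 CPM in the G0 libraries, 26.8 and 24.6 CPM in those of G14.5, and 20.4 and 29.7 CPM in those of P7L (adjusted p = 0.0627 at G14.5 against G0). Dhcr7, the closing reductase, ranged from 25.9 to 41.8 CPM and Ebp, the sterol isomerase, from 24.3 to 28.1 CPM.

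**Figure D2:**
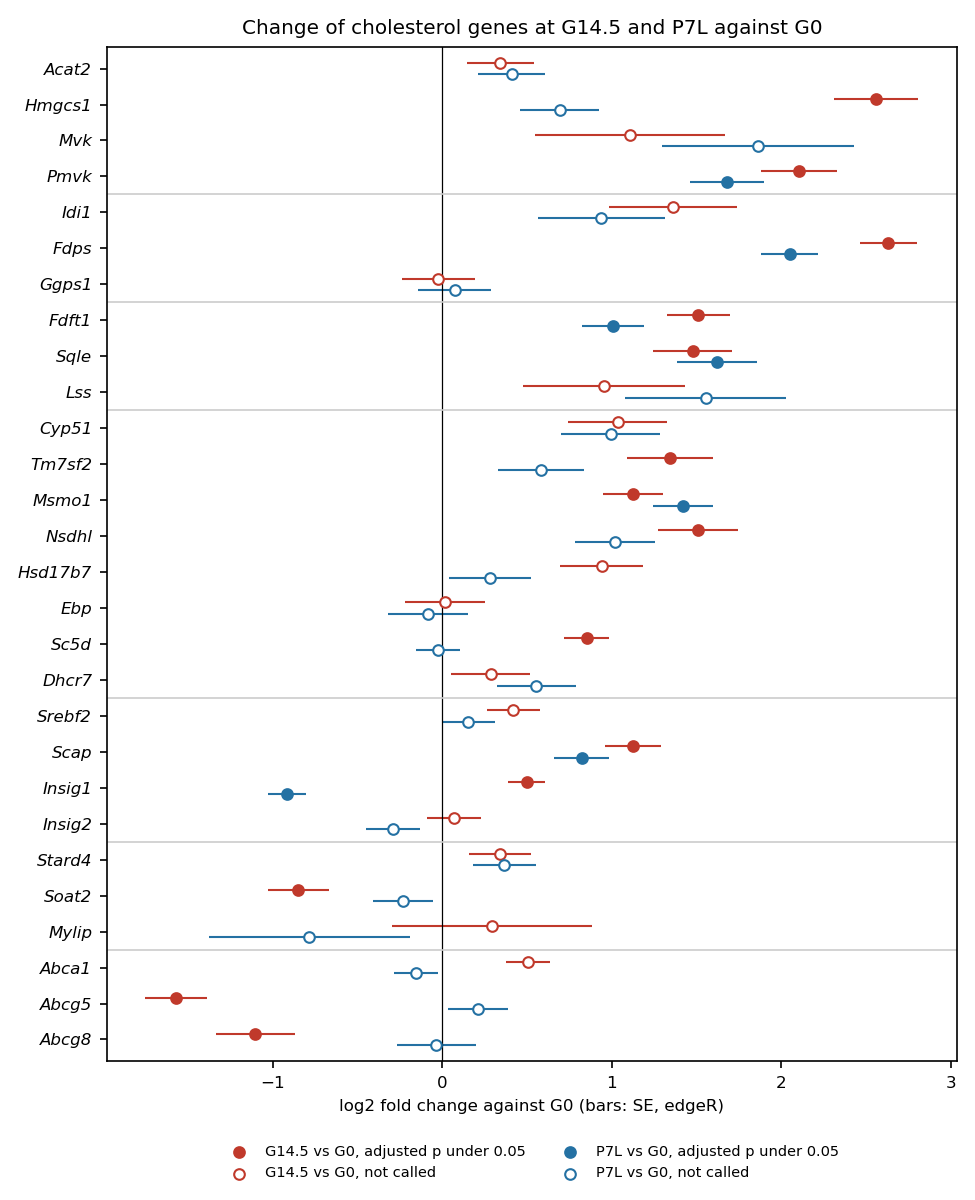
log2 fold change at G14.5 and at P7L against G0 for the 28 tested genes, with bars for the SE of the edgeR fit and filled points for an adjusted p under 0.05; both comparisons share the G0 libraries. Enzymes from Hmgcs1 to Nsdhl lie mostly right of 0, Insig1 lies on opposite sides (0.50 at G14.5 and -0.92 at P7L), Abcg5 lies left of 0 at G14.5 (-1.57) and right of it at P7L (0.21), and Abcg8 lies at -1.10 at G14.5 and at -0.03 at P7L.

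Among the regulators, Insig1 moved in opposite directions. Insig1, itself a target of SREBP2, had 975 and 776 CPM in G0 nuclei, 1278 and 1180.2 CPM in G14.5 nuclei, and 488 and 435 CPM in P7L nuclei. The 3 stages did not overlap, and P7L was the lowest. Insig1 was 1.41-fold higher at G14.5 than at G0 (log2 0.50 ± 0.11 SE, adjusted p = 0.0309), lower at P7L than at G0 by 1.89-fold (log2 -0.92 ± 0.11, adjusted p = 0.0141) and lower at P7L than at G14.5 by 2.67-fold (log2 -1.42 ± 0.11, adjusted p = 0.000725). The enzymes Fdps, Pmvk, Fdft1, Sqle and Msmo1 were called higher in the same P7L libraries in which Insig1 was called lower than at G0. The rise at G14.5 lost its call in 8 of 16 alternatives: the adjusted p was 0.0876 without G14.5 perfusion, 0.195 without G14.5 liver tissue, 0.0638 without G0 liver tissue, 0.0753 without P7L perfusion, 0.0770 without P7L liver tissue and 0.0720 with library size alone (0.0211 to 0.195 over all). The fall at P7L against G0 was not called without P7L perfusion (adjusted p = 0.148) or P7L liver tissue (0.0966; 7.81e-06 to 0.148 over all), whereas P7L against G14.5 was called in all 16. Insig2, the second retention protein, had 127 and 110.0 CPM in the G0 libraries, 149 and 103 CPM in those of G14.5, and 115 and 81.9 CPM in those of P7L, with overlapping stages and no call.

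Scap, the SREBP escort, had 90.7 and 74.6 CPM in G0 nuclei, 227 and 141 CPM in G14.5 nuclei, and 161 and 131 CPM in P7L nuclei. Both later stages stood above G0 and overlapped each other. Scap was 2.18-fold higher at G14.5 than at G0 (log2 1.13 ± 0.16 SE, adjusted p = 0.00750) and 1.77-fold higher at P7L than at G0 (log2 0.82 ± 0.16, adjusted p = 0.0488). The call at P7L was lost in 11 of 16 alternatives (adjusted p 0.00160 to 0.310), among them the fits without P7L perfusion (0.242), P7L liver tissue (0.310) and G0 perfusion (0.0838). The call at G14.5 was lost without G14.5 perfusion (0.0526; 1.13e-06 to 0.0885 over all). Srebf2 had 115 and 81.6 CPM in the G0 libraries, 141 and 119 CPM in those of G14.5, and 118 and 98.8 CPM in those of P7L. Its log2 fold change was 0.42 ± 0.16 at G14.5 against G0 (adjusted p = 0.127) and 0.15 ± 0.16 at P7L against G0 (adjusted p = 0.613), so no change in the level of the factor itself was called.

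The efflux pair Abcg5 and Abcg8, whose products act as one dimer in the bile canaliculus, were lowest at the stage where Hmgcs1 was highest. Abcg5 had 101 and 112 CPM in G0 nuclei, 29.9 and 42.7 CPM in G14.5 nuclei, and 119 and 127 CPM in P7L nuclei. Both G14.5 libraries were below the other 4. Abcg5 was lower at G14.5 than at G0 by 2.97-fold (log2 -1.57 ± 0.18 SE, adjusted p = 0.00318) and 3.43-fold higher at P7L than at G14.5 (log2 1.78 ± 0.18, adjusted p = 0.00199), with a log2 difference of 0.21 ± 0.18 at P7L against G0 (adjusted p = 0.534). Abcg8 had 37.6 and 41.1 CPM in the G0 libraries, 20.6 and 16.3 CPM in those of G14.5, and 40.1 and 36.9 CPM in those of P7L. It was likewise lowest in both G14.5 libraries. Abcg8 was lower at G14.5 than at G0 by 2.15-fold (log2 -1.10 ± 0.23 SE, adjusted p = 0.0264) and 2.1-fold higher at P7L than at G14.5 (log2 1.07 ± 0.23, adjusted p = 0.0325). Their GENCODE spans overlap by 6710 bases on opposite strands, and whether the counting used strand is not given in the sources used here. Reads in the overlap could thus have been counted for the other gene or for neither. Mvd, which lies inside Gm20388 on the opposite strand, had 0 reads. Whether reads were lost in the overlap of Abcg5 and Abcg8 was not tested. The same limit holds for the called genes Fdft1 (overlapped by Ctsb) and Scap (by 5830462I19Rik), whose neighbours lie on the opposite strand, and Fdps (by Gm22935) and Tm7sf2 (by Vps51) are overlapped by a gene on their own strand. Both Abcg5 calls held in all 16 alternatives. For Abcg8 the call against G0 was lost without any library but G0 perfusion: the adjusted p was 0.0796 without G14.5 perfusion, 0.175 without G14.5 liver tissue, 0.0671 without G0 liver tissue, 0.0578 without P7L perfusion and 0.0564 without P7L liver tissue (4.13e-05 to 0.175 over all). Abcg8 at P7L against G14.5 was not called without G14.5 perfusion (0.102), G14.5 liver tissue (0.213), P7L perfusion (0.256) or P7L liver tissue (0.230; 9.80e-05 to 0.256 over all).

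Abca1, which hands cholesterol to apolipoprotein A-I, had 279 and 275 CPM in G0 nuclei, 441 and 350.4 CPM in G14.5 nuclei, and 262 and 237 CPM in P7L nuclei. Its G14.5 libraries were the highest. Abca1 was lower at P7L than at G14.5 by 1.58-fold (log2 -0.66 ± 0.13 SE, adjusted p = 0.0230), while G14.5 against G0 missed the threshold (log2 0.51 ± 0.13, adjusted p = 0.0501) and was called without G0 liver tissue (0.0350; 0.0329 to 0.264 over 16 alternatives). Without either G14.5 or either P7L library, and with library size alone, the P7L call was lost: the adjusted p was 0.168 without G14.5 perfusion, 0.0628 without G14.5 liver tissue, 0.227 without P7L perfusion, 0.198 without P7L liver tissue and 0.0592 with library size alone (0.00376 to 0.227 over all). Soat2, the sterol esterifying enzyme of hepatocytes, had 103 and 119 CPM in the G0 libraries, 67.4 and 56.2 CPM in those of G14.5, and 98.4 and 90.9 CPM in those of P7L. The stages did not overlap, and G14.5 was the lowest. Soat2 was lower at G14.5 than at G0 by 1.80-fold (log2 -0.85 ± 0.18 SE, adjusted p = 0.0264), and P7L against G14.5 was not called (log2 0.62 ± 0.18, adjusted p = 0.0816) except without G0 perfusion (0.0298) or G0 liver tissue (0.0335) and in 3 further alternatives (0.0268 to 0.448 over 16). The Soat2 call was lost without G14.5 perfusion (0.0699), G14.5 liver tissue (0.184), G0 liver tissue (0.0687), P7L perfusion (0.0510) or P7L liver tissue (0.0504; 0.000748 to 0.184 over all).

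Stard4, a cytosolic sterol carrier, had 56.6 and 53.0 CPM in G0 nuclei, 77.1 and 62.5 CPM in G14.5 nuclei, and 82.9 and 60.1 CPM in P7L nuclei, and was called in no comparison. Mylip had 770 reads in 263 nuclei of all libraries, with 0.628 and 0.366 CPM in the G0 libraries, 0.554 and 0.642 CPM in those of G14.5, and 0.282 and 0.286 CPM in those of P7L, and was not called. Its SE was 0.59 on the log2 scale. Npc1l1 had 110 reads in 22 nuclei and was not tested. It had 0.00795 and 0.172 CPM in G0 nuclei, 0.130 and 0.0159 CPM in G14.5 nuclei, and 0.0407 and 0.0215 CPM in P7L nuclei, with no order between stages.

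The split between nuclei was examined at an equal depth of 250000 reads drawn from each nucleus, and 35 nuclei with fewer reads were set aside. The 18 enzymes together had a median of 134 reads per nucleus in G0 perfusion (95% interval 119 to 158) and 162 in G0 liver tissue (142 to 193). At G14.5 the medians were 418.5 (405 to 446) in perfusion and 431 (393 to 494) in liver tissue, and at P7L 276.5 (248 to 302) and 321.5 (303 to 348). The intervals are exact binomial ones over the nuclei of 1 library. They cover the sampling of nuclei within that library and no spread between libraries. The distribution as a whole was higher at G14.5, since the tenth percentile there (173 and 180.3 reads) lay above the G0 medians. No nucleus lacked enzyme reads. A median G0 nucleus had reads of 8 and 9 of the 18 enzymes, a median G14.5 nucleus of 12 in each library, and a median P7L nucleus of 13 in each. The median number of all genes with reads in a thinned nucleus was 5399 and 5655 in the G0 libraries, 6048 and 6007 in those of G14.5, and 6752 and 6707 in those of P7L, and its part in the enzyme counts was not tested.

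**Figure D3:**
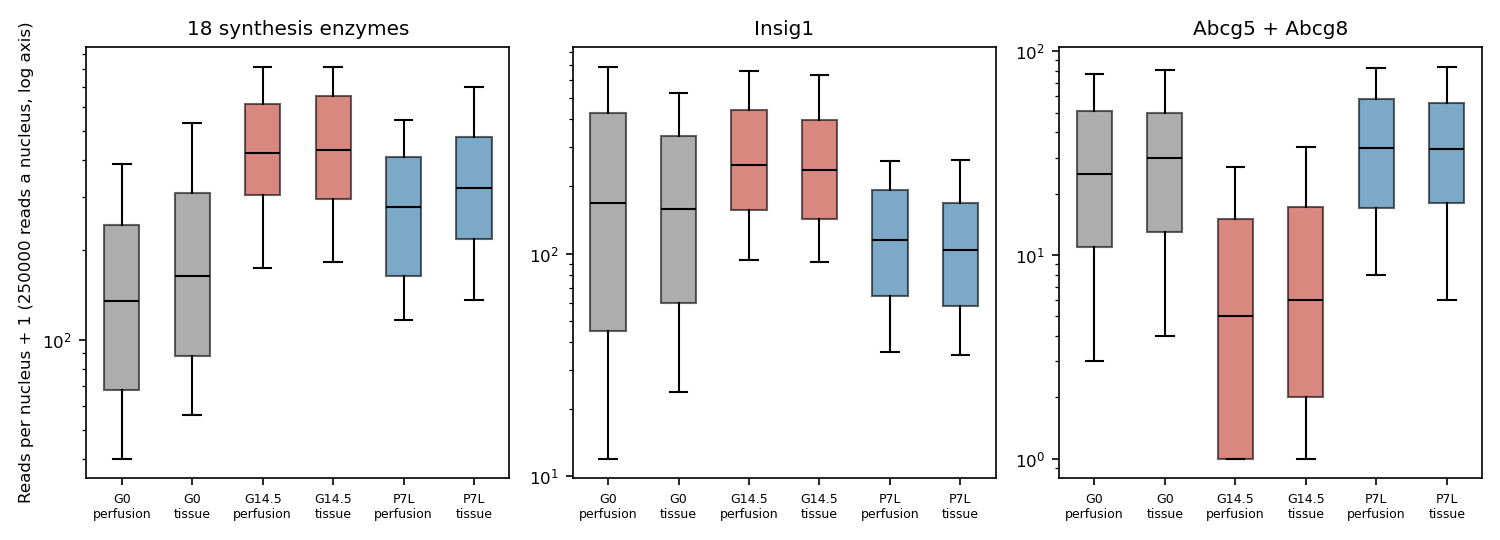
Reads per nucleus plus 1 (log axis), after thinning to 250000 reads, of the 18 tested enzymes together, of Insig1, and of Abcg5 plus Abcg8, by library; boxes span the quartiles with the median, and whiskers the tenth to ninetieth percentile of nuclei. Enzyme medians were 418.5 and 431 reads at G14.5, against 134 and 162 at G0, and Abcg5 plus Abcg8 medians were 4 and 5 reads at G14.5, against 24 and 29 at G0.

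For the called enzymes below, the share of nuclei with reads differed between stages, and for Hmgcs1 also the concentration of reads in a few nuclei. Whether these measures differed beyond the level of each gene was not tested. Fdps was read in 39.8% and 52.7% of G0 nuclei, 92.7% and 95.1% of G14.5 nuclei, and 89.2% and 89.5% of P7L nuclei. Hmgcs1 was read in 64.1% and 74.3% of G0 nuclei, 99.3% and 99.1% of G14.5 nuclei, and 95.3% and 96.3% of P7L nuclei. In both, the G0 libraries were apart from the other 4. The tenth of nuclei with most Hmgcs1 reads held 70.4% and 75.1% of them in the G0 libraries, 35.0% and 35.5% in those of G14.5, and 43.1% and 44.6% in those of P7L. Sqle was read in 28.7% and 32.1% of G0 nuclei, 67.3% and 58.5% of G14.5 nuclei, and 71.6% and 68.4% of P7L nuclei. The share was also higher at P7L than at G0 for enzymes called in no stage comparison. Ggps1 was read in 49.2% and 62.0% of G0 nuclei and 78.7% and 78.2% of P7L nuclei. Ebp was read in 54.1% and 59.1% of G0 nuclei and 78.7% and 72.1% of P7L nuclei. Before thinning, Hmgcs1 was read in 76.6% and 85.3% of G0 nuclei and Fdps in 51.1% and 63.1%.

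The exporters were read in fewer nuclei at G14.5. Abcg5 was read in 86.2% and 90.3% of G0 nuclei, 55.0% and 62.1% of G14.5 nuclei, and 97.0% and 94.2% of P7L nuclei. Abcg5 and Abcg8 together had a median of 24 and 29 reads per G0 nucleus, 4 and 5 per G14.5 nucleus, and 32.5 and 32 per P7L nucleus. At G14.5 the tenth of nuclei with most Abcg5 reads held 59.0% and 60.2% of them, against 40.03% and 35.9% at G0. For Abcg8 the nuclei chosen in the same way at G14.5 held 59.1% and 63.4% of them, against 47.8% and 52.7% at G0. Insig1 was read in 97.8% to 100% of nuclei of every library, with a median of 167 and 157 reads per G0 nucleus, 249 and 237 per G14.5 nucleus, and 113.5 and 103 per P7L nucleus. Nuclei with Insig1 reads thus made up nearly all nuclei at each stage.

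Spearman correlations across the nuclei of 1 library are given as description. Over 28 pairs of 8 frequently read enzymes the median Spearman rho lay between 0.05 and 0.14 in the 6 libraries. Msmo1 and Nsdhl, which act one after the other, had the highest median over libraries (rho 0.31, from 0.18 to 0.35), and Hmgcs1 with Nsdhl followed (0.28). Summed enzyme reads and Insig1 had rho from 0.22 to 0.39. With Srebf2 the summed enzyme reads had rho from -0.07 to 0.23, and with Abcg5 plus Abcg8 from -0.10 to 0.15. Abcg5 and Abcg8 had rho from 0.06 to 0.21. These values are over 181 to 300 nuclei a library that share one preparation and depth range.

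Perfusion and liver tissue libraries were set against each other over the 3 stages. None of the 28 genes was called by edgeR, as none of all 15015 genes was (0% called), nor by DESeq2 or limma-voom. Without adjustment, 4 of the 28 had p under 0.05 (707 of all genes). Scap had 90.7 CPM in perfusion against 74.6 CPM in liver tissue at G0, 227 against 141 CPM at G14.5 and 161 against 131 CPM at P7L, with a log2 difference of 0.42 ± 0.13 (SE). Insig2 (0.41 ± 0.13) and Srebf2 (0.33 ± 0.13) were placed likewise, higher in perfusion at each stage, and Acat2 was lower in perfusion at each stage (log2 -0.48 ± 0.16). The adjusted p was 0.971 for each of these 4.

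Position in the liver lobule is the best known axis of variation among hepatocytes. Nuclei of each library were ordered by a zonation index, the reads of 15 pericentral genes over the reads of those and 15 periportal genes, and split into 3 equal parts of 61 to 102 nuclei. The part with the highest index is called pericentral and that with the lowest periportal; these are ranges of a score, and 99 to 225 nuclei a library lay within 0.05 of a limit. The index genes hold none of the 30. Of 28 genes, 1 was called, where 3.43% of 14583 genes were called (1.9% higher and 1.53% lower). Fdft1 was higher in pericentral nuclei of all 6 libraries. It had 54.6 CPM in pericentral against 29.8 CPM in periportal nuclei of G0 perfusion, and 76.7 against 43.8 CPM in G0 liver tissue. It had 182 against 112 CPM in G14.5 perfusion and 143 against 117 CPM in G14.5 liver tissue, and 128 against 63.3 CPM in P7L perfusion and 127 against 69.1 CPM in P7L liver tissue. The log2 difference was 0.76 ± 0.14 (SE, adjusted p = 0.0127). The call was lost without G14.5 perfusion (adjusted p = 0.0519), P7L perfusion (0.0617) or P7L liver tissue (0.0633; 1.22e-05 to 0.520 over 13 alternatives).

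Msmo1 and Ggps1 were also higher in pericentral nuclei of all 6 libraries, without a call (log2 0.75 ± 0.19, adjusted p = 0.0630, and 0.52 ± 0.17, adjusted p = 0.158). Hmgcs1 was higher in 5 of 6 libraries (log2 0.54 ± 0.23, adjusted p = 0.344) and was called without the G0 perfusion library (log2 0.81, adjusted p = 0.00384; 0.00384 to 0.825 over 13 alternatives), where its difference was opposite (log2 -0.97). In that library several other enzymes also went the other way, among them Fdps (log2 -0.80) and Nsdhl (-1.60), against 1.55 and 2.63 in G0 liver tissue. Some index genes differed in level between stages. At G14.5 against G0, 5 of 14 tested pericentral and 7 of 15 periportal index genes were lower and 1 periportal gene was higher, where 5.01% of all tested genes were lower and 6.93% higher. Whether the parts hold nuclei of the same position at each stage was not tested.

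**Figure D4:**
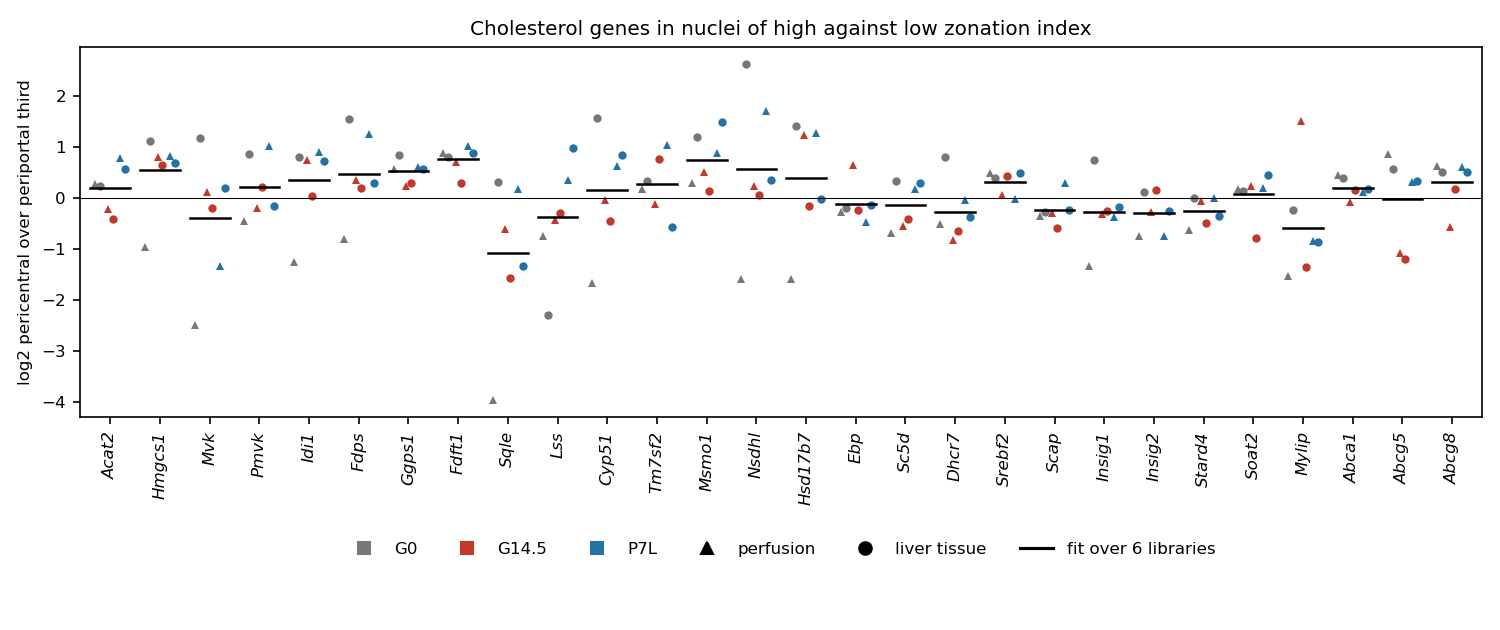
log2 ratio of pericentral over periportal nuclei in each library for the 28 genes, with stages in colour and preparations by symbol; black bars are the fit over 6 libraries. Fdft1 lies above 0 in all 6 libraries (fit 0.76), Abcg5 lies below 0 in both G14.5 libraries (-1.09 and -1.2) and above 0 in the other 4, and the G0 libraries scatter most.

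Other genes near this pathway were taken from lists chosen with earlier results known. Of 23 further genes of synthesis and SREBP control, 2 were higher and 2 lower at G14.5 than at G0, where 6.93% of all tested genes were higher and 5.01% lower. The higher ones were Erlin1, an endoplasmic reticulum protein that restrains SREBP (log2 1.15 ± 0.15), and Cyb5r3, which passes electrons to sterol enzymes (1.05 ± 0.19). The lower ones were Srebf1, the SREBP gene of fatty acid synthesis (log2 -1.81 ± 0.30), and Por, the electron donor of Cyp51 and other P450 enzymes (-0.57 ± 0.12). At P7L against G0, 2 of the 23 were higher and 0 lower, among them Acss2, which makes acetyl-CoA from acetate (log2 1.05 ± 0.16). At P7L against G14.5, 4 were higher and 2 lower. Over all tested genes the shares were 1.56% higher and 1.36% lower at P7L against G0, and 4.2% and 5.06% at P7L against G14.5.

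Of 23 further genes of uptake, storage and transport, 2 were higher and 1 lower at G14.5 than at G0, so that called genes were about as frequent as over all tested genes (11.9%). Lipc, hepatic lipase, had 514 and 562 CPM in the G0 libraries, 2912 and 2628 CPM in those of G14.5, and 169 and 179 CPM in those of P7L. Its stages did not overlap, with a log2 fold change of 2.37 ± 0.12 at G14.5 and -1.63 ± 0.12 at P7L, both against G0. Npc1, which exports cholesterol from lysosomes, was lower at G14.5 than at G0 (log2 -1.46 ± 0.15) and higher at P7L than at G14.5 (1.69 ± 0.15). At P7L against G0, 0 were higher and 1 lower (2.92% of all tested genes were called), and at P7L against G14.5, 2 were higher and 3 lower (9.26%). Of 10 further LXR targets, 3 were higher and 2 lower at G14.5 than at G0, 2 higher and 0 lower at P7L than at G0, and 1 higher and 0 lower at P7L than at G14.5. Cyp7a1, which starts bile acid synthesis, was higher at G14.5 (log2 2.01 ± 0.25) and at P7L (1.79 ± 0.25) than at G0, and Pltp, a phospholipid transfer protein, likewise (1.64 ± 0.29 and 1.73 ± 0.29). Scd1, a fatty acid desaturase, and Srebf1 were lower at G14.5 than at G0 (log2 -1.19 ± 0.23 and -1.81 ± 0.30).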

How the data were processed

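Hepatocyte nuclei of 3 reproductive stages were profiled by Smart-seq3xpress, a plate-based full-length method, per the labels. One deposited table gives raw counts of reads for every gene in every nucleus. The submitters' processing notes name Trimmomatic 0.39, HISAT2 2.1.0, featureCounts 1.5.3 and the build GRCm38 (mm10) as the authors' tools and genome. Whether strand was used, and which nuclei were removed, is not given in the sources used here. The other deposited table holds TPM-like values that the authors scaled to about 100000 per nucleus with a length per gene, and its totals ran from 100214 to 134901. The table had 92 rows of spike-in controls, all at 0 reads, which stayed out of the totals used for tests. Reads are not molecules, and the intervals over nuclei cover the sampling of nuclei within 1 library only.

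For each library, the reads of its nuclei were added up, and each preparation of a stage was taken as 1 replicate. None of the 1567 nuclei was removed, and doublets were not called. The edgeR 4.0.16 quasi-likelihood F test (R 4.3.3, limma 3.58.1) modelled stage and preparation over the 6 libraries with TMM scaling and robust moderation, leaving 2 residual degrees of freedom (prior 5.13). Tested genes passed filterByExpr and had a read in at least 5% of nuclei of at least 2 libraries. Calls were two-sided, at a Benjamini-Hochberg adjusted p under 0.05 over all tested genes. The zone comparison used 12 sums with a block for library. Tests were checked on simulated counts. DESeq2 1.42.0, limma-voom, other scalings, filters and pseudocounts (1 and 0.1), and leaving out each library were alternatives. Leave-out fits keep a stage with 1 library, which is assumed to vary like the others.

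Genes named are the 30 and, of other lists, at most 4 called genes with the smallest p in a comparison. The genes and lists were chosen with earlier results of these data known. Gene positions are from GENCODE M21 and promoters from RefSeq, both on GRCm38. Some genes of the lists are not reported here.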

Additional observations from a re-analysis of the deposited data

Results flagged for a closer look

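In 5 of the 28 genes the pericentral-periportal difference had one sign in both libraries of a stage and the opposite sign in both libraries of another stage. That is 17.9% of the 28, beside 25.0% of the 14583 tested genes, so these signs do not set the 28 genes apart. Abcg5 had the smallest p of the 28 in the test over stages: its log2 difference averaged -1.15 at G14.5 (-1.09 and -1.2) and 0.71 at G0 (0.85 and 0.56). The test of whether the zone difference varies with stage gave an adjusted p of 0.65 for Abcg5 in edgeR. That test called none of 14583 genes, and 916 of them (6.28%) had an unadjusted p under 0.05, and Abcg5 was the only one of the 28 among them.

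Lss had a wider gap between stages, with an average of 0.66 at P7L and -1.53 at G0 (adjusted p = 0.860 for the variation with stage). Cyp51 averaged 0.73 at P7L and -0.25 at G14.5 (0.976). Sc5d averaged 0.23 at P7L and -0.49 at G14.5 (0.893). Acat2 averaged -0.32 at G14.5 and 0.25 at G0 (0.841), and had 0.78 in P7L perfusion and 0.57 in P7L liver tissue. Lss had reads in 7.59% to 29.9% of thinned nuclei of a library, so each of its zone values rests on few nuclei.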

How the results depend on the processing

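Fdps, Hmgcs1, Pmvk, Fdft1 and Abcg5 at G14.5 against G0, and Insig1, Hmgcs1 and Abcg5 at P7L against G14.5, were called in all 16 alternatives. The 14 calls at G14.5 against G0 became 7 to 14 when single libraries were left out, and 18 with DESeq2 or without the preparation term. The 7 calls at P7L against G0 became 1 to 7 when single libraries were left out, 3 with filterByExpr alone, 12 with DESeq2, and, on the values the authors scaled, 0 with a pseudocount of 1 and 4 with 0.1. Leaving out either P7L library gave 1 call. The 6 calls at P7L against G14.5 became 3 to 8 on leaving out libraries and 10 with DESeq2. The single zone call became 0 to 2 on leaving out libraries, 2 with library size alone, 2 after thinning, 3 with DESeq2, 0 without the library block and 0 when each library was split into 2 parts. The cause of these differences was not tested, except that leave-out fits have fewer samples. None of the 28 genes was called for perfusion in any of its alternatives. Among all tested genes, DESeq2 called 3410, 1901 and 2631 in the 3 stage comparisons, against 1793, 438 and 1390, and 85 for perfusion. With library size alone the median of all genes shifted to -0.13 at G14.5 against G0 and 0.20 at P7L against G14.5, with 891 higher and 1101 lower genes in the first and 1048 and 551 in the second. The labels give no replicate numbers. Libraries were paired by preparation through the term in the fit, and without that term 18, 6 and 6 of the 28 genes were called in the 3 stage comparisons, against 14, 7 and 6 with it. Of the alternative values for single genes, 84 lost and 32 gained a call, and 408 others moved by more than their error or changed sign. None of the 505 alternative values of called differences changed sign. Of 2071 alternative values of differences that were not called, 166 did (59 of 112 such differences), none of them with a call; Dhcr7 at G14.5 against G0, for example, was 0.29 and became -0.13 with the authors' values and a pseudocount of 1. Apart from Mvd, the fewest reads of the 30 genes were those of Npc1l1 (110), Mylip (770), Mvk (7031) and Lss (11671).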

Other observations

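Among called genes of the further lists, Cyp7a1 and Lpl had the largest zone differences. Lpl was low, with 0.759 to 5.29 CPM over the 6 libraries, against 81.9 to 425 CPM for Cyp7a1. In pericentral against periportal nuclei, 2 of 9 tested further LXR targets were higher and 1 lower, where 3.43% of all genes were called. Cyp7a1 was higher (log2 3.28 ± 0.23 SE, edgeR adjusted p = 7.73e-05), as was Lpl, lipoprotein lipase (3.75 ± 0.55, adjusted p = 0.00459), and Srebf1 was lower (-0.82 ± 0.17, adjusted p = 0.0253). Of the further synthesis and SREBP genes, Por was higher (1.02 ± 0.12, adjusted p = 0.00126), and of the further transport genes Nceh1, a cholesterol ester hydrolase, was higher (0.80 ± 0.18, adjusted p = 0.0453). None of these lists had a call between perfusion and liver tissue.

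Some genes of the zonation index were called between stages. Of 14 tested pericentral index genes, 0 were higher and 2 lower at P7L than at G0, and 3 were higher and 0 lower at P7L than at G14.5. Of 15 periportal index genes, 1 was higher and 0 lower at P7L than at G0, and 7 were higher and 1 lower at P7L than at G14.5. Of all tested genes 2.92% were called at P7L against G0 and 9.26% at P7L against G14.5.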
